A study of Triticum aestivum with 24 samples.

Results

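The 5 wheat genes described here are RPL9, eIF-2-beta, eIF4E and Eif4B, which take part in making protein, and TCTP, grouped with them by its name. Each was taken by its probe set on the Affymetrix wheat array (Ta.14183.1.S1_at, Ta.165.1.S1_at, Ta.14707.1.S1_at, Ta.239.1.S1_at and Ta.1310.1.S1_x_at), so they are 5 of the 61290 probe sets in the table, and all 5 were among the 36707 that passed the filter on low signal. The platform annotation gave each of these genes 1 probe set. Flag leaves of bread wheat, Triticum aestivum, were profiled at the reproductive stage under drought and under irrigation, with 3 arrays in each of 8 groups. The groups were the drought-susceptible cultivar WL711 under drought and irrigated, the susceptible bulk of inbred lines under drought and irrigated, the drought-tolerant cultivar C306 under drought and irrigated, and the tolerant bulk under drought and irrigated. A bulk pools 10 recombinant inbred lines (RILs), so it is one pool and not a set of genotypes, and each cultivar stands for itself alone. Whether the 3 arrays came from separate plants is not in the labels, so a p-value is set against array-to-array spread that could be technical in part. Plant age and the length and severity of the drought are not stated there.

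Translation in plant cells starts when initiation factors bring a messenger RNA and the initiator transfer RNA to the small ribosomal subunit. RPL9 is a protein of the large ribosomal subunit, and whether this gene serves the ribosome of the cytosol or of the chloroplast was not tested. eIF-2-beta is a subunit of eIF2, the factor that delivers the initiator transfer RNA. eIF4E binds the cap at the 5′ end of the messenger, and eIF4B assists the RNA helicase that opens the leader of the messenger. TCTP, the translationally controlled tumour protein, is an abundant and conserved protein linked to growth control and named for the way its own messenger is translated. Bread wheat carries A, B and D copies of most genes, and a probe set can read several of them, so a value is the sum of what its probes bind. The suffix _x_at of the TCTP probe set marks probes that match more than 1 sequence family, so its signal may include related transcripts. In leaf tissue a lower signal may also mean fewer cells of a type, which cannot be told apart from less RNA per cell.

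The signal is probe set intensity on a linear scale, and its trimmed mean was nearly the same on every array as deposited (500.091 to 500.113). Tests used log2(signal + 16), centred on each array's median. A difference is on that scale, the error after it is its standard error (SE), and a change is called at an adjusted p under 0.05. Signals of different probe sets are not compared with each other. Of 6 leaf photosynthesis genes (PsbO, PsbP, PRK, FBP and rbcl, with petC added later), the median signal ran from 6759 to 64456, and of 7 grain storage and inhibitor genes from 2.75 to 119. Some arrays stood apart. WL711 drought array 1 had a signal of 25.9 for LEA1, a late embryogenesis abundant protein of drying tissue, against 324 and 433 on arrays 2 and 3 and 7.9 to 39.1 on the irrigated WL711 arrays. Tolerant bulk drought array 3 had 13374 for LEA1, against 2000.1 and 1798 on the other 2. The spike-in controls averaged log2 14.6 and 14.02 on C306 drought arrays 1 and 3, and 12.07 to 13.18 on the other arrays.

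RPL9 was lower under drought in all 4 materials. In WL711 its signal was 4565, 1965.5 and 1773 on the drought arrays and 6167, 6772 and 5414 on the irrigated ones. In the susceptible bulk it was 2384, 1979.5 and 2205 under drought and 5563.5, 6943 and 5511 under irrigation. Every drought array of these materials lay below every irrigated one of its material, but WL711 drought array 1, the array with little LEA1, lay close to the irrigated level. C306 had 1293, 2493 and 1499.5 under drought and 4006, 4466 and 4139 under irrigation. The tolerant bulk had 3069, 3397 and 2129 under drought and 6853, 6692 and 6874 under irrigation. The groups did not overlap in C306 or in the tolerant bulk, and the high-LEA1 array 3 of the tolerant bulk was the lowest of its group.

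The fitted change of RPL9 was log2 -1.21 ± 0.30 in WL711 (adjusted p = 0.00683), -1.32 ± 0.30 in C306 (0.003), -1.35 ± 0.30 in the susceptible bulk (0.00188) and -1.27 ± 0.30 in the tolerant bulk (0.00467). Averaged over the 4 materials it was -1.29 ± 0.15 (adjusted p = 3.09e-07, 12 arrays against 12), and 1.9% of all tested probe sets had a lower average change. The call in WL711 was lost without drought array 2 (-1.01, adjusted p = 0.0573) or 3 (-0.95, 0.0697), and the change was larger without array 1 (-1.69). In C306 it was lost without drought arrays 1 and 3 together (-0.67, adjusted p = 0.448). The responses of C306 and WL711 differed by -0.11 ± 0.43 (95% interval -0.99 to 0.78; adjusted p = 0.927), and those of the tolerant and susceptible bulks by 0.08 ± 0.43 (-0.81 to 0.97; 0.96). These intervals are wide, and they leave room for differences almost as large as the responses. Of the 6 leaf photosynthesis genes, 4 also fell over the 4 materials: FBP (-0.91, adjusted p = 1.92e-06), PsbO (-0.78, 0.000137), PsbP (-0.68, 0.000824) and PRK (-0.32, 0.021). The other two, petC (0.09, 0.641) and rbcl (0.18, 0.394), did not pass, and the part of leaf cell content in the RPL9 change was not tested.

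By mean level the 8 groups stood in the order tolerant bulk irrigated (log2 12.72 ± 0.05, SD, n = 3), WL711 irrigated (12.60 ± 0.23), susceptible bulk irrigated (12.43 ± 0.19), C306 irrigated (12.08 ± 0.14), then the tolerant bulk (11.45 ± 0.53), WL711 (11.39 ± 0.82), the susceptible bulk (11.09 ± 0.23) and C306 (10.76 ± 0.57) under drought. All 4 irrigated means lay above all 4 drought means, and C306 was last under each regime. Only the steps on either side of irrigated C306 separated neighbours without overlap between arrays. C306 minus WL711 was -0.63 ± 0.30 under drought (adjusted p = 0.178) and -0.52 ± 0.30 under irrigation (0.264). Tolerant minus susceptible bulk was 0.37 ± 0.30 under drought (0.545) and 0.29 ± 0.30 under irrigation (0.582), so no difference of RPL9 between materials of opposite tolerance passed in the fit of all arrays. The irrigated parental difference passed in a limma fit of those groups alone (adjusted p = 0.0119) and was not called in the other 8 of 9 settings. The parental difference under drought depended on single arrays. It passed without C306 drought array 2 (-0.96, adjusted p = 0.0326), shrank to -0.16 (0.772) without WL711 drought array 1, and was 0.02 (0.991) without C306 drought arrays 1 and 3. C306 array 2, the one then left, stood at log2 11.41, above the mean of the susceptible bulk, so the last place of C306 under drought rests on arrays 1 and 3. The irrigated difference between the bulks turned to -0.06 (0.931) with arrays centred on all probe sets.

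**Figure D1:**
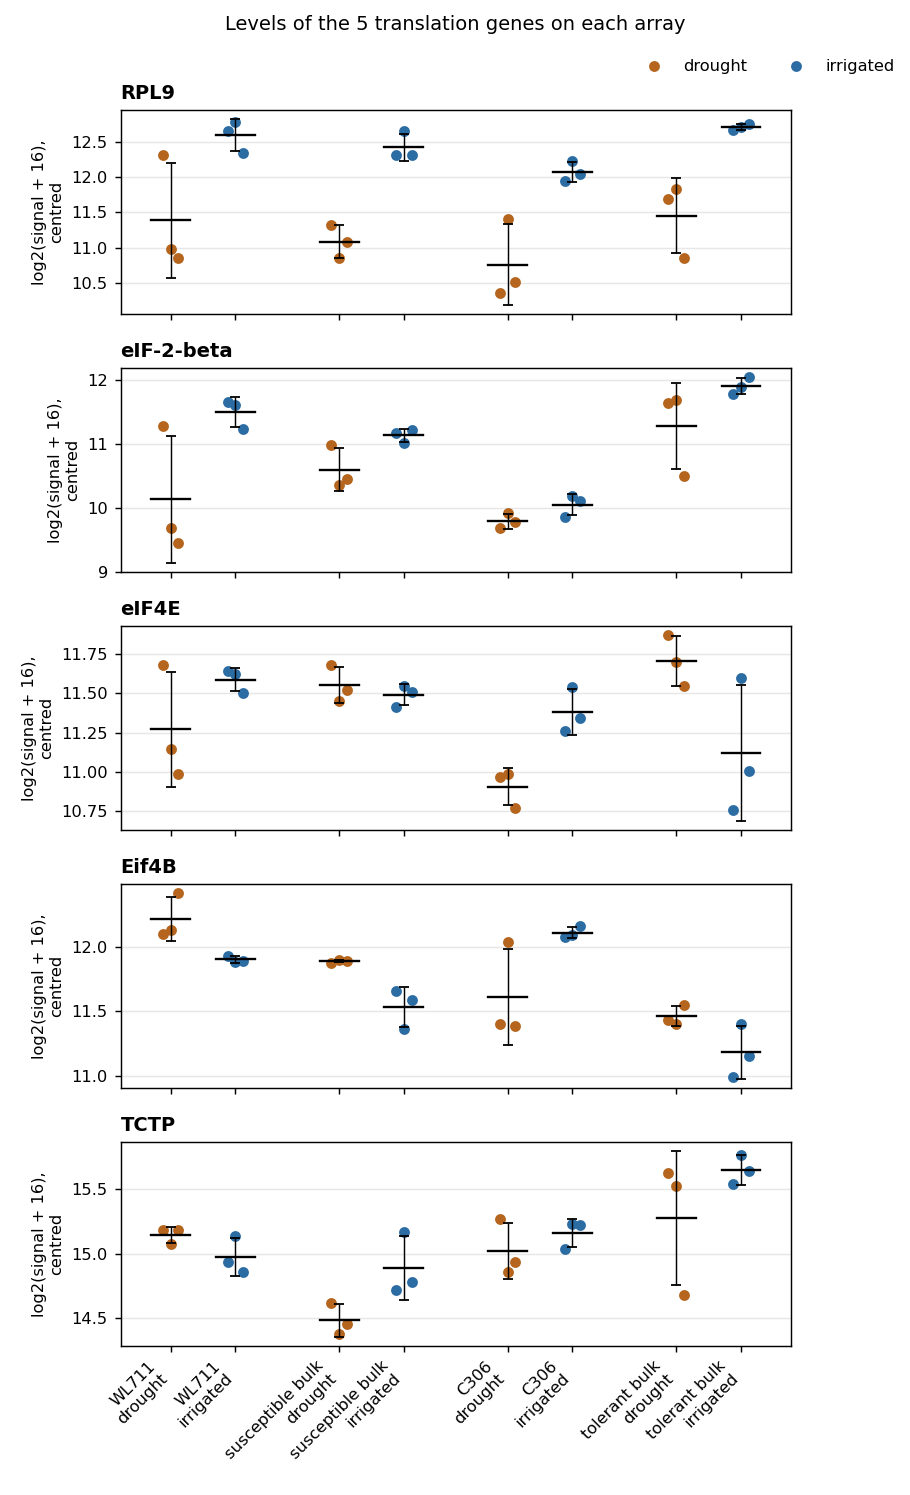
Level of each gene on each array, as log2(signal + 16) centred on the median of the array, with drought groups left of irrigated groups in each material. Points are arrays, the bar is the mean of 3 arrays and the whiskers are 1 SD. RPL9 is lower on all drought arrays than on the irrigated arrays of the same material, and WL711 drought array 1 (leftmost point) lies near the irrigated arrays for RPL9, eIF-2-beta and eIF4E.

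eIF-2-beta, the eIF2 subunit, varied both with water regime and between materials. WL711 had a signal of 2203.5, 794 and 658.5 under drought and 3082, 2988 and 2503 under irrigation. On the centred scale drought array 1 reached into the irrigated range, while arrays 2 and 3 lay far below it. C306 had 805.5, 872.5 and 898 under drought and 928, 1065 and 1069.6 under irrigation, so it was low at both regimes and its groups overlapped after centring. The susceptible bulk had 1882, 1402 and 1419 under drought and 2504, 2224 and 2544 under irrigation. In the tolerant bulk the signal was 2987, 3076 and 1679 under drought and 3692.5, 3774 and 4173 under irrigation. Drought arrays lay below irrigated arrays without overlap in both bulks.

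Drought changed eIF-2-beta by log2 -1.37 ± 0.33 in WL711 (adjusted p = 0.00494) and by -0.70 ± 0.16 over the 4 materials (0.00115). The other materials did not pass: the susceptible bulk stood at -0.54 ± 0.33 (0.257), C306 at -0.26 ± 0.33 (0.622) and the tolerant bulk at -0.63 ± 0.33 (0.19). In WL711 the change was -1.94 without drought array 1, and without array 3 it was -1.02 and not called (adjusted p = 0.0592). The response of C306 minus that of WL711 was 1.11 ± 0.46 and did not pass (adjusted p = 0.157). It passed without WL711 drought array 1 (1.68, adjusted p = 0.0013) and under quantile normalization (1.24, 0.0475).

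Between materials, eIF-2-beta was lower in C306 than in WL711 under irrigation, with a log2 difference of -1.46 ± 0.33 (10.05 ± 0.17 in C306 and 11.51 ± 0.23 in WL711, SD, n = 3 each; adjusted p = 0.00283). Under drought that difference was -0.35 ± 0.33 and did not pass (0.528). The tolerant bulk stood at the other end: it exceeded C306 by 1.49 ± 0.33 under drought (adjusted p = 0.000857) and by 1.86 ± 0.33 under irrigation (0.000106), with no overlap of arrays. Without C306 drought arrays 1 and 3 the drought difference was 1.37 and not called (adjusted p = 0.0523). Tolerant minus susceptible bulk was 0.68 ± 0.33 under drought (0.239) and 0.78 ± 0.33 under irrigation (0.117), neither of which passed, although the drought value did without tolerant bulk array 3 (1.07, adjusted p = 0.0307). The irrigated value passed in a limma fit of those groups alone (adjusted p = 0.000507), and its lowest value among the other settings was 0.429. Under irrigation the parents and the bulks thus had opposite signs of the difference between tolerant and susceptible material. Only the parental one passed in the fit of all arrays, and the contrast between the pairs was not tested. Under drought the parental sign rested on WL711 array 1, and without it the difference was 0.224, the sign of the bulks, and did not pass. From high to low the groups ran: irrigated tolerant bulk, irrigated WL711, tolerant bulk under drought, irrigated susceptible bulk, susceptible bulk under drought, WL711 under drought, irrigated C306 and C306 under drought. Neighbours were separate only between the first and second of these and between the irrigated and drought groups of the susceptible bulk.

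The cap-binding factor eIF4E had no common response. In the tolerant bulk its signal was 3488, 3106 and 3479 under drought and 1805, 3058 and 2019.7 under irrigation. C306 had 1991, 1855 and 1800.0 under drought and 2471, 2759 and 2529.8 under irrigation. After centring, drought arrays of the tolerant bulk overlapped its irrigated array 2 and lay above the other two, and those of C306 lay below all its irrigated arrays. WL711 had 2913, 2221 and 1939 under drought and 3037, 2995 and 3009.8 under irrigation. The susceptible bulk had 3065.5, 3015 and 2988 under drought and 2978, 3212 and 3125 under irrigation. Groups overlapped in both of these materials.

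eIF4E rose in the tolerant bulk by log2 0.58 ± 0.19 (11.71 ± 0.16 under drought and 11.12 ± 0.43 under irrigation, SD, n = 3 each; adjusted p = 0.0313). This call was lost without drought array 1 (0.50, adjusted p = 0.115) or 2 (0.062) and without irrigated array 1 (0.40, 0.184) or 3 (0.0992). It stood at -0.47 ± 0.19 in C306 (0.0776), -0.32 ± 0.19 in WL711 (0.254), 0.06 ± 0.19 in the susceptible bulk (0.866) and -0.04 ± 0.10 over the 4 materials (0.788). The C306 value passed with no centring (adjusted p = 0.0413) and with another centring (0.0295), and the WL711 value passed without drought array 1 (-0.52, 0.0325). Under drought eIF4E was higher in the tolerant bulk than in C306 by 0.80 ± 0.19 (adjusted p = 0.00171; 0.72 and 0.0702 without C306 drought arrays 1 and 3). Over the 8 groups its means ran from 10.91 in C306 under drought to 11.71 in the tolerant bulk under drought, and no 2 neighbours in that order were separate.

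Eif4B encodes the helicase cofactor. In C306 its signal was 2704, 3861 and 2755 under drought and 4374, 4045 and 4475 under irrigation. WL711 had 3901, 4413 and 5250.2 under drought and 3712, 3595 and 3944 under irrigation. After centring, drought arrays were below irrigated ones in C306 and above them in WL711, in each case without overlap. In C306 drought array 2 (log2 12.038) came close to irrigated array 1 (12.078). The susceptible bulk had 3521, 4106 and 3866 under drought and 3525, 2821 and 3288 under irrigation. The tolerant bulk had 2573, 2524 and 3481 under drought and 2125, 2665 and 2235 under irrigation. Both bulks lay on the WL711 side, with drought arrays above irrigated ones after centring, although in the tolerant bulk the closest 2 arrays almost met.

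Eif4B fell in C306 by log2 0.50 on that scale (SE 0.16, adjusted p = 0.0302), and it stood at 0.32 ± 0.16 in WL711 (0.184), 0.35 ± 0.16 in the susceptible bulk (0.123) and 0.28 ± 0.16 in the tolerant bulk (0.252). The response of C306 minus that of WL711 was -0.82 ± 0.23 (adjusted p = 0.0289). The same difference between the tolerant and susceptible bulks was -0.07 ± 0.23 (0.924). Both C306 calls were lost without drought arrays 1 and 3, those with the high spike-in signal, whose part was not tested. The change in C306 was then -0.07 (adjusted p = 0.912) and the difference of response -0.39 (0.468), with the single array that was left taken to have the spread of the rest. The C306 call was also lost without any 1 of its irrigated arrays or of drought arrays 1 and 3 (adjusted p up to 0.155), under quantile normalization (-0.44, 0.0512), with no filter (0.0506), with no intensity trend (0.0567) and in a fit of its own groups (0.0879). The difference of response was lost under 5 of 10 other settings: besides those C306 arrays left out, quantile normalization (-0.69, adjusted p = 0.0619), centring on all probe sets (-0.87, 0.0675), no intensity trend (0.0613) and the groups compared alone (0.0864). Over the 4 materials Eif4B stood at 0.11 ± 0.08 (0.285), and at 0.22 (0.0298) without C306 drought arrays 1 and 3. Under drought C306 minus WL711 was -0.61 ± 0.16 (adjusted p = 0.0134; -0.18 and 0.797 without those arrays), a call also lost without C306 array 1 (0.0868) or 3 (0.0883) or WL711 array 3 (0.0595). The tolerant bulk was below C306 under irrigation, with a difference of -0.93 ± 0.16 (11.18 ± 0.20 in the tolerant bulk and 12.11 ± 0.05 in C306, SD, n = 3 each; adjusted p = 0.000109). By mean level, WL711 under drought came first (12.22 ± 0.17) and the irrigated tolerant bulk last, and the tolerant bulk had the lowest mean under each regime.

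TCTP did not pass the drought test in any material. WL711 had 33125, 34031 and 35832 under drought and 29962, 34513 and 30895 under irrigation. The susceptible bulk had 23636, 22945 and 22900.2 under drought and 29519.6, 39772 and 30192 under irrigation, and after centring these were the only drought and irrigated groups of TCTP that did not overlap. C306 had 39578, 27388 and 32448 under drought and 34135, 35746 and 37405 under irrigation. The tolerant bulk had 47320.4, 44229 and 30648 under drought and 49958, 55457 and 50609 under irrigation. The drought change was 0.17 ± 0.20 in WL711 (adjusted p = 0.609), -0.14 ± 0.20 in C306 (0.673), -0.41 ± 0.20 in the susceptible bulk (0.16), -0.37 ± 0.20 in the tolerant bulk (0.219) and -0.19 ± 0.10 over the 4 (0.143). Under quantile normalization it passed in C306 (-0.32, adjusted p = 0.018), in the susceptible bulk (-0.47, 0.000793) and over the 4 materials (-0.18, 0.00414), while the value took the other sign in the tolerant bulk (0.14, 0.321) and in WL711 (-0.07, 0.67). With no centring it also passed in the susceptible bulk (-0.50, 0.0217) and over the 4 materials (-0.22, 0.027). The responses of the tolerant and susceptible bulks differed by 0.03 (adjusted p = 0.975), and by 0.61 (0.0117) under quantile normalization.

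TCTP differed in level between the bulks. The tolerant bulk exceeded the susceptible bulk by log2 0.80 ± 0.20 under drought (15.28 ± 0.52 in the tolerant bulk and 14.48 ± 0.12 in the susceptible bulk, SD, n = 3 each; adjusted p = 0.0196) and by 0.76 ± 0.20 under irrigation (15.65 ± 0.12 in the tolerant bulk and 14.89 ± 0.25 in the susceptible bulk; 0.0139), without overlap of arrays. The irrigated call was lost with arrays centred on all probe sets (0.415, adjusted p = 0.198), and the sign turned with quantile normalization, to -0.04 (0.851). Beside this, the highest probe set signal ran from 120140 to 145929 on the irrigated tolerant bulk arrays and from 45896 to 65379 on the irrigated susceptible bulk arrays, and its part in the TCTP difference was not tested. Under drought the quantile value was 0.57 and passed, while centring arrays on all probe sets gave 0.69 (adjusted p = 0.0649) and a fit of these groups alone gave the same value as reported but no call (0.169). The drought call was lost without susceptible bulk array 2 or 3 or tolerant bulk array 1 or 2 (0.62 to 0.78, adjusted p 0.0803 to 0.132). The irrigated call was lost without susceptible bulk array 1 or 3 or tolerant bulk array 2 (0.68 to 0.71, 0.0588 to 0.074). The parents showed no such difference that passed: C306 minus WL711 was -0.13 ± 0.20 under drought (0.739) and 0.18 ± 0.20 under irrigation (0.594). The susceptible bulk lay below WL711 under drought, with a difference of -0.66 ± 0.20 (adjusted p = 0.0261), and it was the lowest of the 8 groups. That call was lost without susceptible bulk array 2 (0.0974) or 3 (0.0803) or WL711 array 3 (0.0713), with arrays centred on all probe sets (-0.59, 0.0797) and with no filter on low signal (0.0501). Under quantile normalization it was kept, at -0.33. Its step to the next group up, its own irrigated arrays, was the only separate pair of neighbours in the order.

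Counted over the 5 genes, drought lowered 2 and raised 0 in WL711 (RPL9 and eIF-2-beta), where 9.02% of all tested probe sets were called lower, 10.4% higher and 19.5% either way. For the susceptible bulk 1 was lower, RPL9, beside 11.4% lower, 12.8% higher and 24.3% either way. C306 had 2 lower, RPL9 and Eif4B, beside 12%, 9.23% and 21.3%. The tolerant bulk had 1 lower, RPL9, and 1 higher, eIF4E, beside 7.63%, 11.2% and 18.8%. Over the 4 materials 2 were lower, RPL9 and eIF-2-beta, and 0 higher, beside 22%, 21.7% and 43.7%. RPL9 alone of the 5 was called lower in each material.

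The median change of the 5 was log2 -0.32 in WL711, beside 0.105 over all tested probe sets. It was -0.41 against -0.02 for the susceptible bulk, -0.47 against -0.02 for C306 and -0.37 against 0.00 for the tolerant bulk. Groups were separate for 2 of 5 genes in WL711 (32.8% of all tested probe sets), 4 for the susceptible bulk (49.4%), 3 for C306 (37.8%) and 3 for the tolerant bulk (32.1%). With 5 genes, these counts are not far from the shares over all probe sets.

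**Figure D2:**
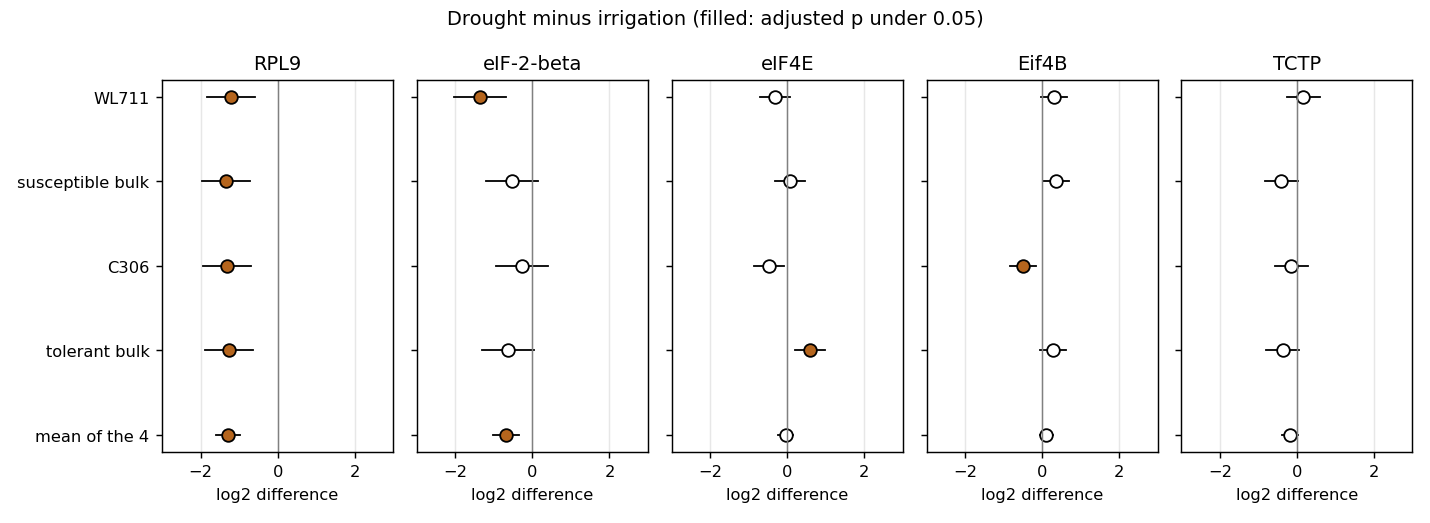
Drought minus irrigation for each gene, in each material and averaged over the 4, as log2 difference with its 95% interval (not adjusted for multiple tests). Filled points passed at an adjusted p under 0.05. RPL9 lies between -1.35 and -1.21 in the 4 materials, while the other genes scatter on both sides of 0 or spread widely.

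The ratio of 3′ to 5′ signal of the control transcripts, a sign of RNA quality, moved with some of these contrasts. In the susceptible bulk it was log2 -0.53 to 0.03 under drought and -1.71 to -0.63 under irrigation for GAPDH. For actin in that bulk it was -0.191 to 0.391 under drought and -1.274 to -0.256 under irrigation. For EF1a in C306 it was 0.42 to 1.48 under drought and -1.19 to 0.19 under irrigation. In the tolerant bulk it ran the other way, from -1.36 to 0.89 under drought and from 1.42 to 2.801 under irrigation for EF1a. Under irrigation the tolerant bulk (1.42 to 2.801) also lay apart from the susceptible bulk (-0.22 to 0.42) and from C306 (-1.19 to 0.19) in the EF1a ratio, and these are contrasts in which TCTP, and eIF-2-beta and Eif4B, were called. In the actin ratio, WL711 under drought (0.431 to 1.86) lay apart from C306 (-0.318 to 0.207) and from the susceptible bulk (-0.191 to 0.391) under drought. Eif4B was called in the contrast with C306 and TCTP in that with the susceptible bulk. Under drought the tolerant bulk (-1.358 to -0.155) lay apart from C306 (0.258 to 0.6) in the GAPDH ratio, a contrast in which eIF-2-beta and eIF4E were called. The spike-in controls lay apart there as well, at log2 12.262 to 12.996 in the tolerant bulk and 13.149 to 14.555 in C306. In WL711 they also lay apart between drought (12.314 to 13.18) and irrigation (12.07 to 12.286). So they did in C306 (13.149 to 14.555 and 12.462 to 12.728). RPL9 was called in both, eIF-2-beta in WL711 and Eif4B in C306. Under irrigation C306 lay above WL711, where eIF-2-beta was called. The irrigated tolerant bulk (12.67 to 12.843) lay above the irrigated susceptible bulk (12.165 to 12.407), where TCTP was called. In the other comparisons of groups they overlapped. The part of these ratios and of the spike-in signal in those calls was not tested. Over the 24 arrays the correlation with the GAPDH, actin and EF1a ratios was -0.11, -0.21 and 0.08 for RPL9, -0.34, -0.21 and 0.15 for eIF-2-beta, and -0.43, -0.19 and -0.45 for eIF4E. For Eif4B it was 0.31, 0.20 and -0.26, and for TCTP 0.24, -0.13 and 0.27. The spike-in signal correlated with RPL9 at -0.58, eIF-2-beta at -0.50, eIF4E at -0.64, Eif4B at -0.21 and TCTP at 0.29. With group means removed, the spike-in values were -0.45, -0.22, -0.20, -0.50 and 0.57 in the same order of genes. Arrays share groups and scaling in these correlations, which describe the arrays only.

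For differences between materials, 1 of the 5 genes was called in each of the 4 planned comparisons. C306 against WL711 gave Eif4B lower under drought, where 8.82% of tested probe sets were called lower, 5.41% higher and 14.2% either way. Under irrigation it gave eIF-2-beta lower (7.87% lower, 8.31% higher, 16.2% either way). TCTP was higher when the tolerant bulk was set against the susceptible one, under drought (2.59% higher, 3.6% lower, 6.18% either way) and under irrigation (6.49%, 7.68% and 14.2%). Groups were separate for 1 of 5 genes between the parents under drought (23.4% of tested probe sets) and 3 under irrigation (44.2%), and for 2 between the bulks under drought (25.4%) and 3 under irrigation (39.5%).

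Bulk against parent was added after the data had been seen. The tolerant bulk against C306 gave eIF-2-beta and eIF4E higher under drought (19.4% higher, 18.2% lower, 37.5% either way). Under irrigation it gave eIF-2-beta higher and Eif4B lower (14.5%, 19.5% and 34%). Against WL711 the susceptible bulk gave TCTP lower under drought (9.23% lower, 7.48% higher, 16.7% either way). Under irrigation limma called 0 of the 5, with 1.51% higher, 1.49% lower and 3% either way, and 1 of the 5, Eif4B, had an unadjusted p under 0.05 (0.0346). Groups were separate for 2 of 5 in the tolerant bulk against C306 under drought (41.3%) and 4 under irrigation (49.4%), and for 2 in the susceptible bulk against WL711 under drought (32.3%) and 2 under irrigation (29.1%).

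Of the differences of response between the parents, 1 of 5 was called, Eif4B (4.74% lower, 3.11% higher, 7.85% either way). Between the bulks limma called 0 of 5 (0.992% higher, 1.85% lower, 2.84% either way), and the lowest unadjusted p was 0.0605, for eIF4E.

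**Figure D3:**
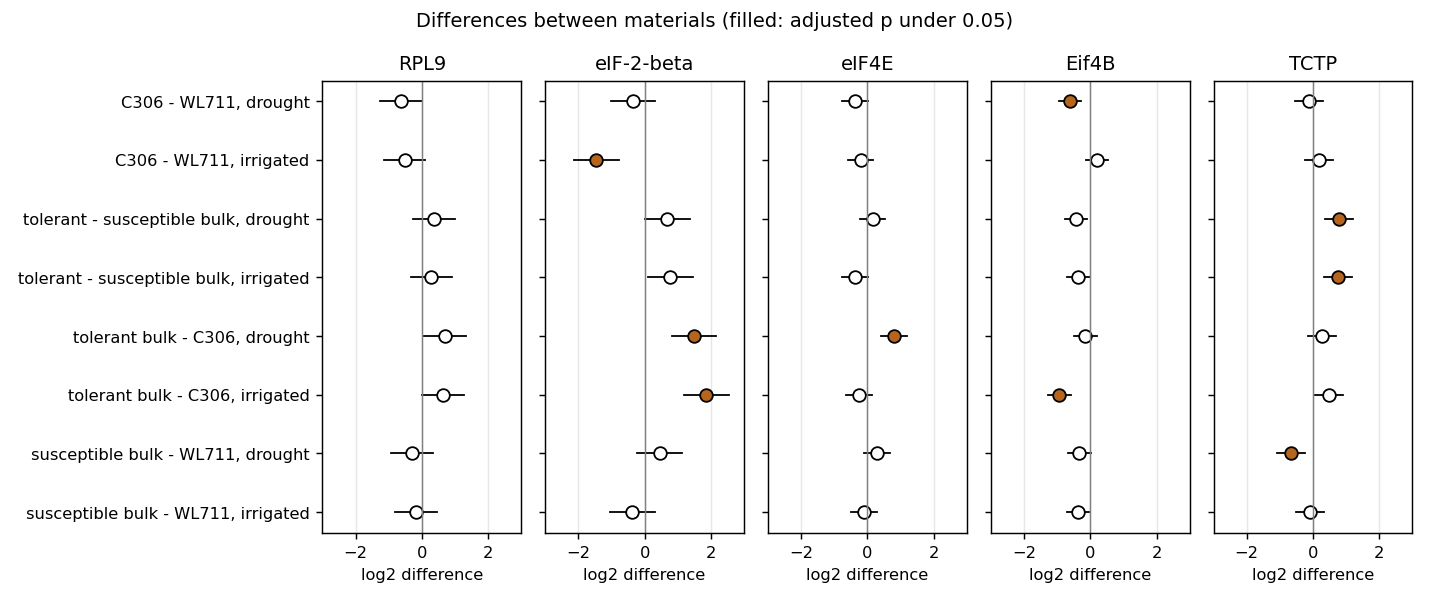
Differences between materials for each gene under drought and under irrigation, as log2 difference with its 95% interval (not adjusted for multiple tests). Filled points passed at an adjusted p under 0.05. eIF-2-beta is lower in irrigated C306 than in irrigated WL711 (-1.46) and higher in the tolerant bulk than in C306 (1.49 and 1.86), and TCTP is higher for the tolerant bulk against the susceptible one (0.80 and 0.76), where quantile normalization turns the irrigated value to -0.04.

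Of the other translation genes that the annotation names, TEF1, translation elongation factor 1 alpha, which carries aminoacyl transfer RNA to the ribosome, was read by 2 probe sets. On Ta.659.3.S1_x_at its signal was 11991, 11889 and 12593.5 in the susceptible bulk under drought and 22006, 22517 and 22300.3 under irrigation. C306 had 12362, 13107 and 12296 there under drought and 16251, 16385 and 16079 under irrigation. Drought arrays were below irrigated ones in both, with a log2 difference of -0.78 ± 0.18 (adjusted p = 0.00222) in the susceptible bulk and -0.39 ± 0.18 in C306, which did not pass (0.131). This probe set was also lower in WL711 (-0.61 ± 0.18, 0.0177) and the tolerant bulk (-0.74 ± 0.18, 0.00487), and over the 4 materials (-0.63 ± 0.09, 4.04e-06). In WL711 the call was lost without drought array 2 (adjusted p = 0.129) or 3 (0.134) or irrigated array 2 (0.0508). The other probe set, Ta.659.2.S1_x_at, was lower in the same 3 materials (-0.70 to -0.87) but stood at 0.22 ± 0.18 in C306 (0.427), with 15238, 13999.9 and 14304.5 under drought and 11955, 12741 and 12161 under irrigation. Its WL711 call was lost without drought array 2 (0.0711) or 3 (0.0672). The response of C306 minus that of WL711 was 0.92 ± 0.26 on this probe set (adjusted p = 0.029, lost without any 1 of 7 arrays, up to 0.0857) and 0.23 ± 0.25 on the other (0.669). Like TCTP, Ta.659.2.S1_x_at was higher in the tolerant than the susceptible bulk under drought (0.76, adjusted p = 0.013) and irrigation (0.68, 0.0143). Both calls were lost with arrays centred on all probe sets (0.0708 and 0.299), and the irrigated one under quantile normalization (0.347). The drought call was also lost in a fit of its groups alone (0.115). With 1 array left out at a time, the drought call was kept in 2 of 6 cases and the irrigated call in 3 of 6. Ta.659.2.S1_x_at was lower in irrigated C306 than in irrigated WL711 (-0.76, 0.00523). The other probe set passed in none of these (0.353, 0.339 and 0.0854).

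RPS29, a protein of the small ribosomal subunit, had 2 probe sets. Their drought changes had opposite signs in WL711 and the same sign in the other materials. In WL711 Ta.24254.3.S1_x_at had 84.6, 42.9 and 69.7 under drought and 135, 156 and 149 under irrigation, a difference of -0.97 ± 0.36 (adjusted p = 0.0592; 0.0455 with the replicate number as a block). Ta.30687.2.S1_x_at had 355, 1152 and 927 under drought and 481, 248 and 325.5 under irrigation (1.12 ± 0.60, 0.201). Neither passed the drought test in any material or on average as reported. In WL711 Ta.24254.3.S1_x_at, with drought signals close to the filter limit of 48.6, passed with no centring (0.0406), quantile normalization (0.0499) and no intensity trend (0.0435). It was higher in C306 than in WL711 under drought (1.435, adjusted p = 0.00816, and 0.135 in those groups alone). It was also higher in the irrigated tolerant than susceptible bulk (1.115, 0.0386), a call kept under 4 of 9 alternatives. With TEF1 and RPS29, each by its brighter probe set, the list held 7 genes, of which 3 were lower and 0 higher over the 4 materials (RPL9, eIF-2-beta and TEF1). Beside this, 22% of all tested probe sets were called lower there, 21.7% higher and 43.7% either way, so the number called was near the share over all probe sets.

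NCBP, named for a cap-binding protein, falls outside that list and was picked after its values had been seen. Its signal was 874.5, 885 and 419 in C306 under drought and 1398, 1932 and 1739.7 under irrigation. It was lower there, with a log2 change of -1.28 ± 0.29 (adjusted p = 0.0023; -0.83 and 0.22 without drought arrays 1 and 3). In WL711 it had 1827, 784 and 831 under drought and 1986, 2291 and 2074 under irrigation (-0.93 ± 0.29, 0.0239), a call lost when drought array 2 or 3, or irrigated array 1 or 2, was left out. NCBP did not pass in the susceptible bulk (-0.73 ± 0.29, 0.0654) or the tolerant bulk (-0.27 ± 0.29, 0.565). Over the 4 materials it was lower, with a log2 change of -0.80 ± 0.14 (adjusted p = 6.75e-05), which stands beside -0.04 ± 0.10 for eIF4E. A test between these 2 genes was not made.

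Among themselves the 5 genes did not move as 1 group. Over the 24 arrays RPL9 and eIF-2-beta correlated at Pearson r = 0.76, and at 0.87 once group means were removed, which says that arrays of a group high for one were high for the other. Within groups eIF4E went with eIF-2-beta (0.65) and RPL9 (0.62). Over the 24 arrays Eif4B correlated at -0.55 with eIF-2-beta, -0.41 with TCTP and -0.20 with RPL9, and within groups at -0.16, -0.30 and 0.09. These values describe 24 arrays from 8 groups that share their scaling.

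**Figure D4:**
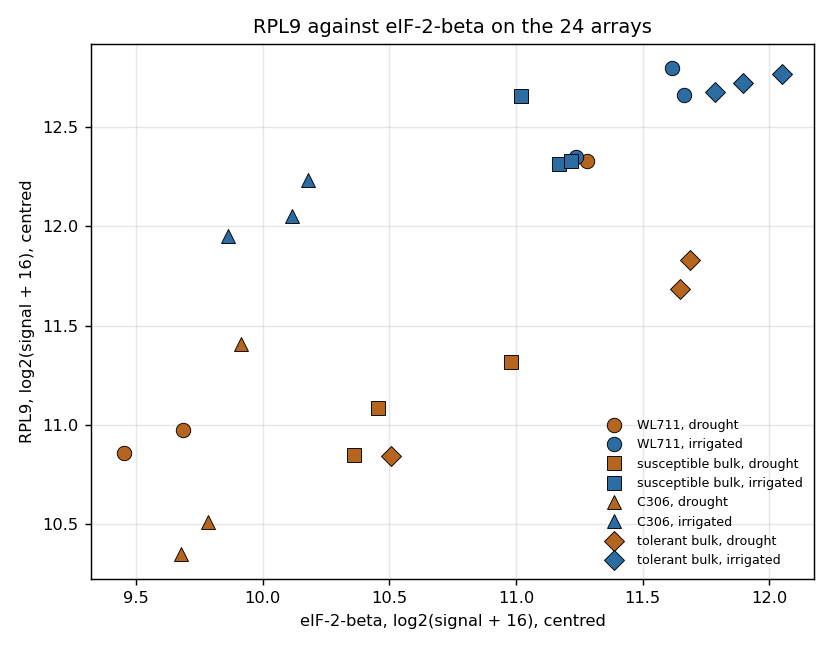
RPL9 (vertical) against eIF-2-beta (horizontal) on the 24 arrays, both as log2(signal + 16) centred on the median of the array, with colour for water regime and shape for material. Drought arrays lie below irrigated arrays of the same material for RPL9, the C306 arrays of both regimes and WL711 drought arrays 2 and 3 lie at the left, and the correlation over all arrays is 0.76.

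The named probe sets whose levels over the 24 arrays were most like those of RPL9 belonged to FBP, the fructose bisphosphatase (r = 0.97), LOC543063 (0.97) and LOC542862 (0.97), out of 954 candidates. Within groups these correlations were 0.96, 0.94 and 0.90. For eIF-2-beta they were LOC543279, LOC543076 and LOC543162, each at 0.96. TCTP was most like LOC543231 (0.90), PRK, the phosphoribulokinase of the Calvin cycle (0.89), and LOC100125711 (0.87). Eif4B went with LOC543239 (0.86), LOC100037602 (0.82) and LOC543431 (0.81), the last of which stood at 0.12 within groups, and eIF4E with LOC543081 (0.80), LOC780667 (0.75) and LOC542782 (0.74).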

How the data were processed

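The authors deposited 1 table of probe set intensity for 24 arrays, from the Affymetrix software GCOS (version 1.2 in the submitters' processing notes), whose settings are not stated in the labels. Per the labels' protocols, biotin-labelled cRNA was made from 8 ug of total RNA. Left out were 111 controls and the dimmest 40% of the remaining probe sets, by mean signal (48.6 or less). Values were turned into log2(signal + 16). Each array was then shifted so that its median over the 36707 tested probe sets (7.83 to 8.22 before) equalled the mean of these medians. limma 3.58.1 in R 4.3.3 fitted 8 group means, with the variance prior following mean intensity (degrees of freedom: 16 residual, 8.32 prior), and p-values were adjusted by Benjamini-Hochberg over all tested probe sets in each of 11 planned and 4 added comparisons, two-sided. The fit was tested on simulated data.

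Probe sets were named from the platform annotation (1273 probe sets, 771 genes) and RefSeq gene synonyms (IWGSC CS RefSeq v2.1). The list took every gene named RPL, RPS, eIF, TEF or TCTP. NCBP was added after its values were seen, and 4 bulk-parent comparisons likewise. For each gene the 3 most alike named probe sets were ranked by Pearson correlation over arrays. The genes, lists and tests were chosen with earlier results of these data known. The replicate numbers did not pair the arrays: deviations of same-numbered arrays correlated at -0.14 to 0.19. There were 0 identical pairs of arrays, and arrays of a group correlated at 0.893 to 0.973. The number of arrays limits the precision. Alternatives were other pseudocounts, filters, centrings, quantile normalization, no trend, a replicate block, only the compared groups, and arrays left out.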

Additional observations from a re-analysis of the deposited data

Results flagged for a closer look

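Eif4B was the 1 gene of the 5 whose drought response differed between the parents by a test of the difference itself: C306 minus WL711 was log2 -0.82 ± 0.23 (adjusted p = 0.0289). All 3 drought arrays lay below the irrigated ones in C306 and above them in WL711. In C306 the closest arrays almost met, with drought array 2 at log2 12.038 and irrigated array 1 at 12.078. Without C306 drought arrays 1 and 3, those with the high spike-in signal, the parental difference was -0.39. Between the bulks the difference of response was -0.07 and did not pass (0.924). The parental call was kept without 3 of 12 arrays, each left out alone, and lost without the other 9 (adjusted p up to 0.0883). It was also lost under 5 of 10 other settings, among them quantile normalization (-0.69, adjusted p = 0.0619), where eIF-2-beta passed instead (1.24, 0.0475).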

How the results depend on the processing

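Counts are of the 5 genes called. The replicate number as a block changed no count (2 in WL711). Fitting only the groups compared gave, for drought, WL711 0 (against 2), C306 1 (2), the tolerant bulk 1 (2) and the susceptible bulk 4 (1); for materials, 0 between the parents under drought (1), 2 under irrigation (1), 0 between the bulks under drought (1) and 2 under irrigation (1), and 0 for the parental difference of response (1). Without C306 drought arrays 1 and 3, the C306 drought count was 0, that between parents under drought 0 and the difference of response 0. In C306 no filter gave 1 and no trend gave 1; no trend also gave 1 in the tolerant bulk and 0 for the parental difference of response. Without centring the susceptible bulk had 2 and the irrigated bulk comparison 2. Centring on the median over all probe sets gave 2 for the irrigated bulks (Eif4B and eIF4E, with TCTP lost), 0 for the bulks under drought and 0 for the parental difference of response. Quantile normalization gave 2 in the susceptible bulk, 0 for the irrigated bulks, where TCTP turned to -0.036 (0.76 as reported), and 1 for the difference between bulks (TCTP); with its count kept, it lost Eif4B and gained TCTP in C306, and lost Eif4B and gained eIF-2-beta in the parental difference of response. The mean drought response had 2 or 3 under these settings. With one array left out at a time, the count ran from 0 to 3 in WL711, 1 to 2 in C306, 1 to 2 in the tolerant bulk, 0 to 2 between the parents under drought, 0 to 1 between irrigated bulks, 0 to 2 between bulks under drought and 0 to 2 for the parental difference of response. The causes were not tested.

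RPL9 kept its drought call over the 4 materials under all 9 alternatives and each of the 24 arrays left out (-1.41 to -1.13), and so did eIF-2-beta (-0.84 to -0.60). Over all probe sets, the count called for drought was 7140 in WL711, 712 in its own 6 arrays and 3002 to 11436 with 1 array left out. In C306 it was 7804, 1667 without drought arrays 1 and 3 and from 4989 with 1 left out. In the susceptible bulk it was 8907, and 14157 in its own arrays. Between parents it was 5222 under drought (866 in those groups alone, 1161 without C306 arrays 1 and 3, from 3072 with 1 left out) and 5941 under irrigation (10743 alone, from 3890). Between bulks it was 2270 under drought (942 to 4854 with 1 left out) and 5204 under irrigation (8521 alone, from 2943). For the difference of response it was 2883 in the parents (1696 alone, 1325 without C306 arrays 1 and 3, up to 4813 with 1 left out) and 1044 in the bulks (1655 alone, from 582). The tolerant bulk against C306 under drought had 13770 (6553 without C306 arrays 1 and 3), and the susceptible bulk against WL711 had 6132 under drought (3533 alone) and 1101 under irrigation (3758 alone, from 624). Another centring moved the share of calls that were higher. With arrays centred on all probe sets it was 35.5% in WL711 (53.6% as reported), 24.9% in C306 (43.4%), 78.1% in the tolerant bulk (59.4%), 32.6% between irrigated parents (51.4%), 18.4% between parents under drought (38%), 11.4% between irrigated bulks (45.8%), 20.5% between bulks under drought (41.9%), 60.7% for the difference between bulks (34.9%), 30% and 64.1% for the tolerant bulk against C306 irrigated and under drought (42.7% and 51.6%), and 58.5% for the susceptible bulk against WL711 under drought (44.8%). The median change moved by up to -0.35, between irrigated bulks. Without centring it was 42.1% in the susceptible bulk (52.9%), 48.7% for the difference between bulks, and 65.1% and 55.2% for the susceptible bulk against WL711 irrigated (50.2%) and under drought; under quantile normalization, 47.3% for the difference between bulks and 60.5% for the irrigated susceptible bulk against WL711. Using the dimmer probe set of TEF1 and RPS29 changed the list's count in 4 comparisons between materials or responses.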
